A study of Arabidopsis thaliana with 12 samples.

Results

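The autophagy genes of Arabidopsis were followed in the shoots of WT and *tmt2* seedlings. Genes were taken by symbol (ATG or APG with a number, or G18 with a letter), which gave 32 of the 22953 genes in the deposited table. By locus, 27 of the 32 were assigned as autophagy genes from a list of roles drawn up for this report. The other 5 carry the same symbols for other reasons and are given apart. They are *APG1* (*VTE3*, a methyltransferase of plastoquinone and tocopherol synthesis), *APG2* (*TATC*, a subunit of the thylakoid Tat translocase), *APG3* (a chloroplast peptide chain release factor), *APG10* (a histidine biosynthesis enzyme) and a second gene listed as *ATG2*, which is *EBP1*. Of the 27 autophagy genes, 26 passed the filter on low counts. The gene left out was *ATG18E*, which had at most 0.10 FPKM in any library.

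All plants were Columbia-0, and RNA came from the above-ground tissue. The WT and the *TMT2* knockout line *tmt2*, which lacks a sugar importer of the vacuolar membrane, were kept on 1/2 MS media, either free of sucrose (WT and *tmt2-S*) or containing 1% sucrose (WT-Suc and *tmt2-L-Suc*), with 3 libraries in each of the 4 groups. By the labels the *tmt2-S* seedlings were 7 days old and those of the other 3 groups 5 days old. The name *tmt2-S* stands for *tmt2* seedlings without true leaves and *tmt2-L* for those that develop normally, so *tmt2-S* differed from each other group in age and in seedling type as well as in genotype or sucrose, and these cannot be told apart. The *tmt2* line is 1 T-DNA line with its insertions in the last exon of *TMT2*, and the transcript upstream of them is still made. *TMT2* lay between 21.8 and 25.4 FPKM in *tmt2-S*, 10.8 and 24.8 FPKM in *tmt2-L-Suc*, 7.04 and 9.36 FPKM in the WT and 7.33 and 11.4 FPKM in WT-Suc. This level therefore does not check the knockout.

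Autophagy delivers cytoplasm and organelles to the vacuole inside a double-membrane vesicle, the autophagosome. In yeast and plants, the ATG1 kinase with ATG13 starts the process, a lipid kinase complex with ATG6 marks the membrane, and ATG9, ATG2 and the ATG18 proteins bring lipid to it. The small ubiquitin-like protein ATG8 is then joined to phosphatidylethanolamine by ATG7, ATG3 and the ATG12-ATG5 conjugate, which itself needs ATG10. Plants use autophagy to recycle nitrogen and carbon, in particular when sugar is scarce. The WT shoots contained the transcripts of most of these genes at middle levels. *ATG8F* and *ATG8E* were the most abundant, with 145 ± 15.9 and 144 ± 32.7 FPKM (SD, n = 3), followed by *ATG8I* with 31.8 ± 3.78, *ATG8C* with 23.6 ± 1.55 and *ATG8A* with 19.1 ± 4.26 FPKM. FPKM relates the mapped fragments of a gene to its transcript length and to the total of the library, so it can be compared between genes. *ATG8E* and *ATG8F* did not differ beyond their spread. The least abundant of the tested genes were *ATG8G* with 2.11 ± 0.811 FPKM and *ATG18D* with 2.19 ± 0.414 FPKM.

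The ATG8 proteins are made with an end that the protease ATG4 trims to a glycine, the residue that is joined to the lipid. The ends of the 9 *ATG8* coding sequences are shown because the isoforms differ there and because the table names 2 of them in a confusing way: the symbol *APG8H* belongs to AT3G15580, which is *ATG8I*, and the symbol *ATG8H* to AT3G06420. The sequences are from the RefSeq annotation of TAIR10.1, end with the stop codon, and have the codon of the glycine that follows threonine and phenylalanine in capitals.
*ATG8A* (chr4:11656762-11656809, plus strand): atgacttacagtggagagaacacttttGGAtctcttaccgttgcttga
*ATG8B* (chr4:2328663-2328710, minus strand): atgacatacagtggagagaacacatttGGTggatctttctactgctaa
*ATG8C* (chr1:22934215-22934253, plus strand): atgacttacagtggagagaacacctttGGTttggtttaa
*ATG8D* (chr2:2083211-2083252, minus strand): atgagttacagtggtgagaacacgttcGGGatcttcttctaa
*ATG8E* (chr2:18625482-18625526, plus strand): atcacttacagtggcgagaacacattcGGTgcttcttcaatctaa
*ATG8F* (chr4:9306882-9306926, minus strand): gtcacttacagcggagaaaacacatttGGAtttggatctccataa
*ATG8G* (chr3:22416927-22416971, plus strand): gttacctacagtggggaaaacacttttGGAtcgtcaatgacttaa
*ATG8H* (chr3:1955219-1955251, minus strand): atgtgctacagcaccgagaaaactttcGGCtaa
*ATG8I* (chr3:5274075-5274107, minus strand): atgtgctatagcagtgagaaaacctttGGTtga
In *ATG8H* and *ATG8I* the stop codon follows the glycine codon directly, while the other 7 have between 2 and 5 further codons. The 2 codons are those of *ATG8C*, where 1 of 2 annotated transcripts has the end shown. The 2 also form a pair over the whole coding sequence, in which they are 66.1% identical, whereas *ATG8H* is between 55.6% and 60.8% identical to the other isoforms. The closest pair is *ATG8A* and *ATG8B* with 84.3%. No pair is identical, but reads from the most similar stretches can still be shared out between isoforms by RSEM. The expected counts of the 9 isoforms were whole numbers in every library, and the sharing of reads was not tested.

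The question for *tmt2-S*/WT was which transcripts differ in the seedlings that fail to make true leaves. Of the 26 autophagy genes tested, 8 were higher and 1 was lower in *tmt2-S* (edgeR quasi-likelihood test, Benjamini-Hochberg adjusted p ≤ 0.05). Among all 18506 genes, 20.7% were higher and 22.6% were lower in the same test. The median log2FC of the 26 genes was 0.40, and that of all genes was -0.0064. With the criteria |log2FC| ≥ 1.2 and adjusted p ≤ 0.05, 3 autophagy genes were DEGs, all higher, against 7.79% of all genes as higher and 12% as lower DEGs. They were *ATG8B*, *ATG8H* and *ATG18F*. On the log2 CPM scale, all *tmt2-S* libraries were above all WT libraries for 10 of the 26 genes and below them for 3, as for 24.4% and 26.6% of all genes. Bulk RNA cannot tell a changed level per cell from a changed share of a cell type.

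**Figure D1:**
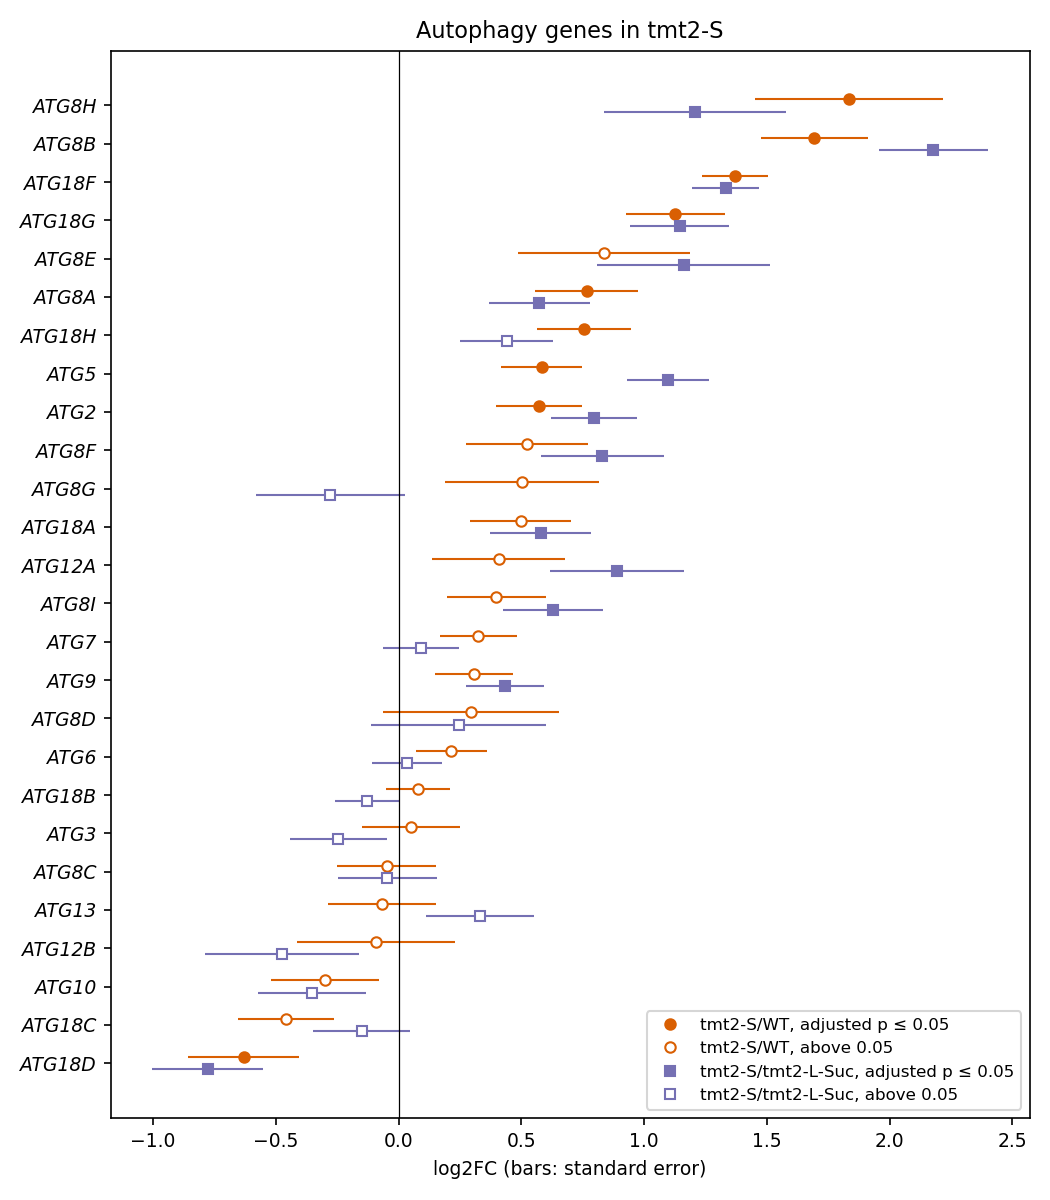
Log2FC (x axis) of the 26 tested autophagy genes (y axis) in *tmt2-S*/WT (circles) and *tmt2-S*/*tmt2-L-Suc* (squares), with standard errors as bars; filled symbols have an adjusted p ≤ 0.05. *ATG8H*, *ATG8B* and *ATG18F* lie farthest to the right in *tmt2-S*/WT and *ATG18D* farthest to the left. The *tmt2-S* libraries are shared by the circles and the squares.

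*ATG8B* (AT4G04620, chromosome 4, 2328442 to 2330590) had 7.58, 6.86 and 9.44 FPKM in the WT libraries and 20.4, 26.1 and 36.4 FPKM in the *tmt2-S* libraries. It had 8.43, 9.92 and 10.7 FPKM in WT-Suc and 6.83, 5.50 and 6.26 FPKM in *tmt2-L-Suc*. All *tmt2-S* libraries were above every other library. The log2FC was 1.69 (SE 0.22, edgeR adjusted p = 7.46e-05) in *tmt2-S*/WT and 2.18 (SE 0.22, edgeR adjusted p = 1.01e-05) in *tmt2-S*/*tmt2-L-Suc*.

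*ATG8H* (AT3G06420, chromosome 3, 1954990 to 1956397) had 9.39, 6.37 and 11.1 FPKM in the WT and 14.0, 40.0 and 45.1 FPKM in *tmt2-S*. The first *tmt2-S* library was close to the highest WT library and the other 2 were far above it. WT-Suc had 12.7, 6.26 and 5.57 FPKM and *tmt2-L-Suc* 16.4, 12.6 and 15.2 FPKM, so the first *tmt2-S* library overlapped with *tmt2-L-Suc*. The log2FC was 1.83 (SE 0.38, edgeR adjusted p = 0.00207) in *tmt2-S*/WT and 1.21 (SE 0.37, edgeR adjusted p = 0.0156) in *tmt2-S*/*tmt2-L-Suc*. The latter call was lost without *tmt2-S* replicate 2 or 3.

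The 2 most abundant isoforms were not called in *tmt2-S*/WT. *ATG8E* had 133, 119 and 181 FPKM in the WT and 155, 247 and 393 FPKM in *tmt2-S*. These groups overlapped, and the log2FC of 0.84 had an edgeR adjusted p of 0.0706. In *tmt2-L-Suc* it had 159, 138 and 70.8 FPKM, and *tmt2-S*/*tmt2-L-Suc* gave a log2FC of 1.16 (edgeR adjusted p = 0.0148). *ATG8F* had 151, 127 and 156 FPKM in the WT, 142, 201 and 302 FPKM in *tmt2-S* and 162, 123 and 98.9 FPKM in *tmt2-L-Suc*. The first *tmt2-S* library again lay among the others. Its log2FC was 0.52 in *tmt2-S*/WT (edgeR adjusted p = 0.107) and 0.83 in *tmt2-S*/*tmt2-L-Suc* (edgeR adjusted p = 0.0142). Both calls against *tmt2-L-Suc* were lost without *tmt2-S* replicate 3 and without *tmt2-L-Suc* replicate 3.

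**Figure D2:**
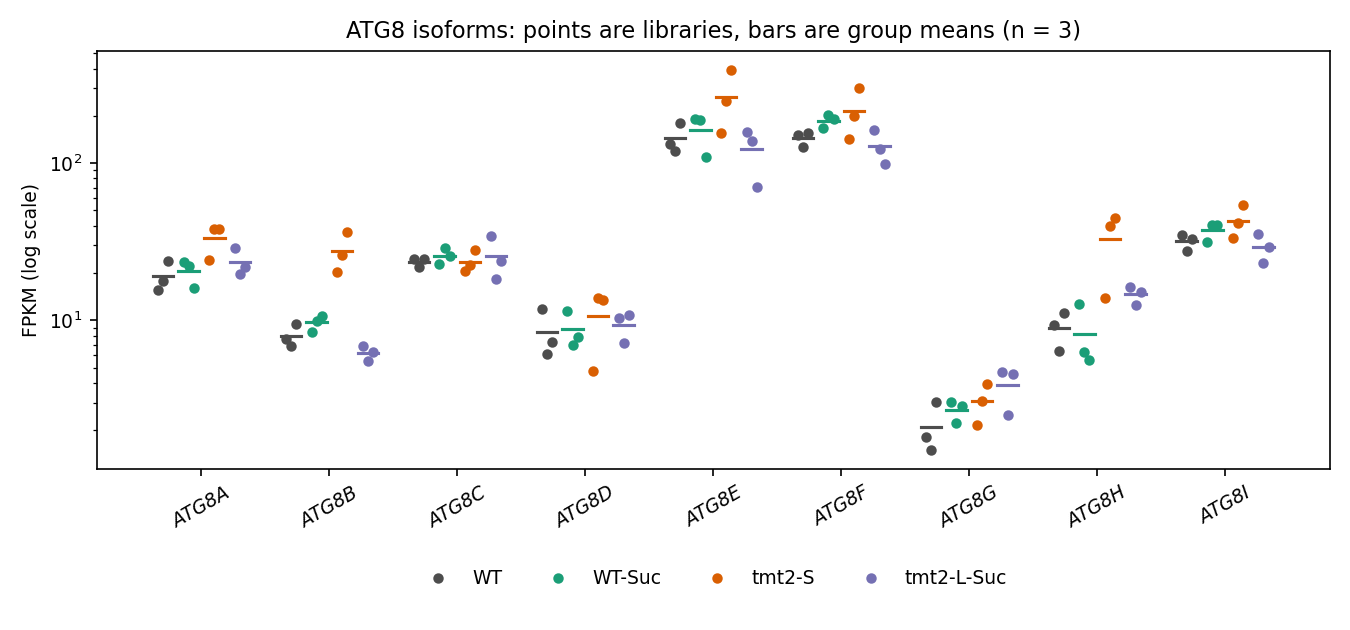
FPKM (log axis) of the 9 *ATG8* isoforms (x axis) in the 12 libraries, with 3 points per group and a bar at the group mean. *ATG8B* is above all other libraries in the 3 *tmt2-S* libraries, whereas *ATG8C*, *ATG8D* and *ATG8G* overlap between *tmt2-S* and the WT.

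Of the other isoforms, *ATG8A* was higher in *tmt2-S* than in the WT. It had 15.6, 17.8 and 23.8 FPKM in the WT and 24.2, 37.9 and 38.2 FPKM in *tmt2-S* (log2FC 0.77, edgeR adjusted p = 0.0102). The lowest *tmt2-S* library was just above the highest WT library. *ATG8A* was also called in *tmt2-S*/*tmt2-L-Suc* (log2FC 0.57, edgeR adjusted p = 0.0342), where the libraries overlapped and the call was lost without replicate 2 or 3 of either group. *ATG8I* was called in *tmt2-S*/*tmt2-L-Suc* (log2FC 0.63, edgeR adjusted p = 0.0197), but not without *tmt2-S* replicate 3 or *tmt2-L-Suc* replicate 2 or 3, and had a log2FC of 0.40 in *tmt2-S*/WT (edgeR adjusted p = 0.13). *ATG8C*, *ATG8D* and *ATG8G* passed in neither comparison, and *ATG8C* had 23.6 ± 1.55 FPKM in the WT and 23.6 ± 3.84 FPKM in *tmt2-S*. So 3 of the 9 isoforms were called in *tmt2-S*/WT and 6 of the 9 in *tmt2-S*/*tmt2-L-Suc*, all of them higher in *tmt2-S*, where 20.7% and 25.7% of all genes were higher.

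Summed over the 9 isoforms, *ATG8* reached 654 ± 249 FPKM in *tmt2-S* and 391 ± 58.0 FPKM in the WT (SD, n = 3). With sucrose the sum was 462 ± 49.6 FPKM in the WT-Suc libraries and 363 ± 88.8 FPKM in the *tmt2-L-Suc* libraries. The *tmt2-S* libraries ranged from 417 to 914 FPKM and the WT libraries from 334 to 450 FPKM, so they overlapped. An exact two-sided permutation test of *tmt2-S* against the WT gave p = 0.2, where 0.1 is the smallest p that 3 against 3 libraries allow. Within the sum, *ATG8B* took 2.03 ± 0.0799% in the WT and 4.33 ± 0.498% in *tmt2-S*, and *ATG8H* took 2.26 ± 0.307% and 4.87 ± 1.48%. The share of *ATG8C* was 6.10 ± 0.590% in the WT and 3.84 ± 0.962% in *tmt2-S*. *ATG8F* had the largest difference, with 37.2 ± 2.12% in the WT and 33.0 ± 1.24% in *tmt2-S*. In each of these 4 shares the groups did not overlap, which gave an exact permutation p of 0.1 (adjusted over the 9 isoforms, 0.225). Between *tmt2-S* and *tmt2-L-Suc* the share of *ATG8H* overlapped (4.87% and 4.201%, exact permutation p = 0.7), while *ATG8B* took 1.76 ± 0.403% in *tmt2-L-Suc*. The shares of *ATG8C* (7.10%), *ATG8F* (35.2%) and *ATG8G* (1.12%) were higher in *tmt2-L-Suc* than in *tmt2-S* (3.84%, 33.0% and 0.477%), and these 3 and *ATG8B* did not overlap between these groups (exact permutation p = 0.1 each, adjusted over the 9 isoforms 0.225). *ATG8E* and *ATG8F* together held 73.9 ± 1.13% of the sum in the WT and 72.7 ± 2.90% in *tmt2-S*.

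**Figure D3:**
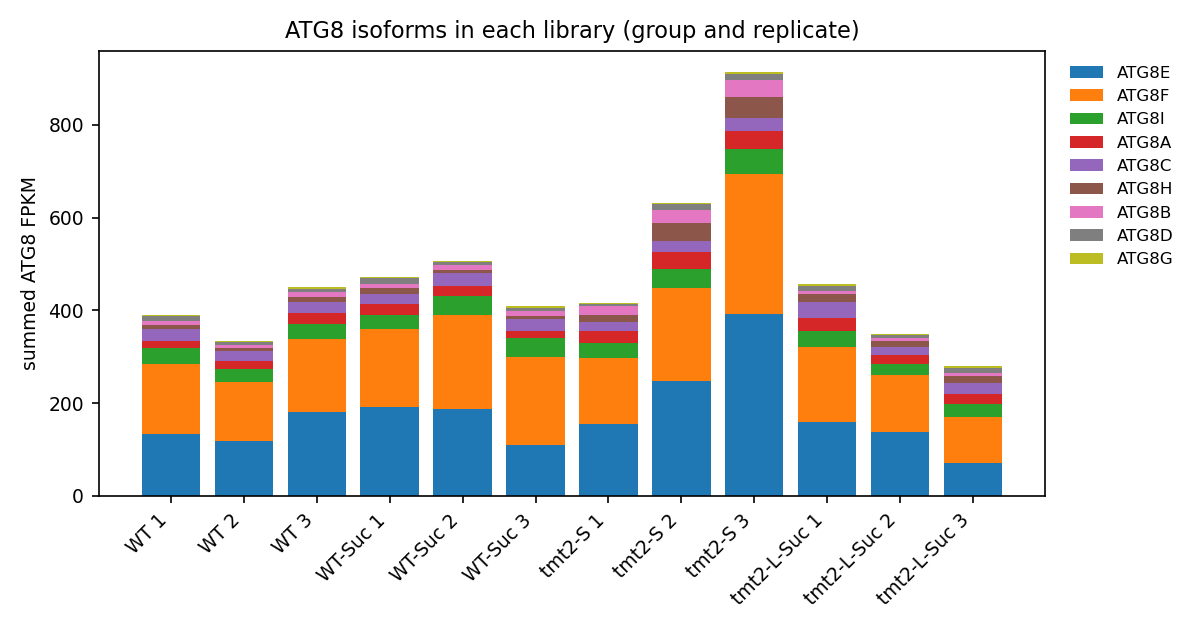
Summed FPKM of the 9 *ATG8* isoforms (y axis) in each of the 12 libraries (x axis, group and replicate), with the isoforms as stacked colours. The sum is between 417 and 914 FPKM in *tmt2-S*, and the first *tmt2-S* library lies within the range of the WT libraries, 334 to 450 FPKM.

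The *ATG18* genes encode WD40 proteins that bind phosphoinositides. Of the 7 tested, *ATG18F*, *ATG18G* and *ATG18H* were higher and *ATG18D* was lower in *tmt2-S*/WT, and the other 3 were not called. *ATG18F* (AT5G54730, chromosome 5, 22233789 to 22237370) had 10.05, 9.49 and 9.69 FPKM in the WT and 23.2, 29.4 and 23.3 FPKM in *tmt2-S*. WT-Suc had 8.34, 8.07 and 8.27 FPKM and *tmt2-L-Suc* 11.9, 8.75 and 11.2 FPKM. The *tmt2-S* libraries were all far above the other 9, and *ATG18F* was the autophagy gene with the smallest adjusted p in *tmt2-S*/WT (log2FC 1.37, SE 0.14, edgeR adjusted p = 1.19e-05). The log2FC was 1.33 (SE 0.14, edgeR adjusted p = 9.85e-06) in *tmt2-S*/*tmt2-L-Suc*.

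*ATG18G* had 5.86, 5.40 and 6.07 FPKM in the WT and 8.98, 14.1 and 15.6 FPKM in *tmt2-S*, without overlap (log2FC 1.13, edgeR adjusted p = 0.000718). The log2FC was 1.14 in *tmt2-S*/*tmt2-L-Suc* (edgeR adjusted p = 0.000481). *ATG18H* had 3.90, 3.69 and 3.80 FPKM in the WT and 4.44, 7.92 and 7.34 FPKM in *tmt2-S* (log2FC 0.76, edgeR adjusted p = 0.00647), but the first *tmt2-S* library was below all 3 *tmt2-L-Suc* libraries, which had 5.36, 5.09 and 4.85 FPKM. *ATG18D* was lower in *tmt2-S*, with 2.03, 1.88 and 2.66 FPKM in the WT, 1.08, 1.78 and 1.5 FPKM in *tmt2-S* and 2.50, 2.89 and 2.38 FPKM in *tmt2-L-Suc*. It was the only autophagy gene called lower in either comparison. Its log2FC of -0.63 in *tmt2-S*/WT (edgeR adjusted p = 0.0394) was above the threshold with DESeq2, with the 2 compared groups alone and without WT replicate 1 or 3 or *tmt2-S* replicate 1 or 3. It was -0.78 in *tmt2-S*/*tmt2-L-Suc* (edgeR adjusted p = 0.0118), a call lost without *tmt2-L-Suc* replicate 2. *ATG18B* and *ATG18C* were not called, with log2FC of 0.08 and -0.46 in *tmt2-S*/WT. *ATG18A*, with a log2FC of 0.50 (edgeR adjusted p = 0.0673) in *tmt2-S*/WT, was called in *tmt2-S*/*tmt2-L-Suc* (log2FC 0.58, edgeR adjusted p = 0.0313), a call lost without replicate 2 or 3 of either group.

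*ATG2*, which encodes a lipid transfer protein that works with ATG18, had 2.83, 3.50 and 4.54 FPKM in the WT and 5.24, 5.69 and 5.47 FPKM in *tmt2-S* (log2FC 0.57, edgeR adjusted p = 0.0189). In *tmt2-L-Suc* it had 3.93, 3.34 and 2.70 FPKM (log2FC 0.80 for *tmt2-S*/*tmt2-L-Suc*, edgeR adjusted p = 0.00231). The *tmt2-S* libraries were above both groups. The call of *ATG2* in *tmt2-S*/WT was lost without WT replicate 1 or 2 and without *tmt2-S* replicate 2. *ATG9*, the membrane protein of the autophagosome precursor vesicles, was called only in *tmt2-S*/*tmt2-L-Suc* (log2FC 0.43, edgeR adjusted p = 0.0364), with 4.18 ± 0.595 FPKM in *tmt2-S* and 3.26 ± 0.269 FPKM in *tmt2-L-Suc*. Leaving out *tmt2-S* replicate 2 or 3 or *tmt2-L-Suc* replicate 1 or 3 ended that call.

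**Figure D4:**
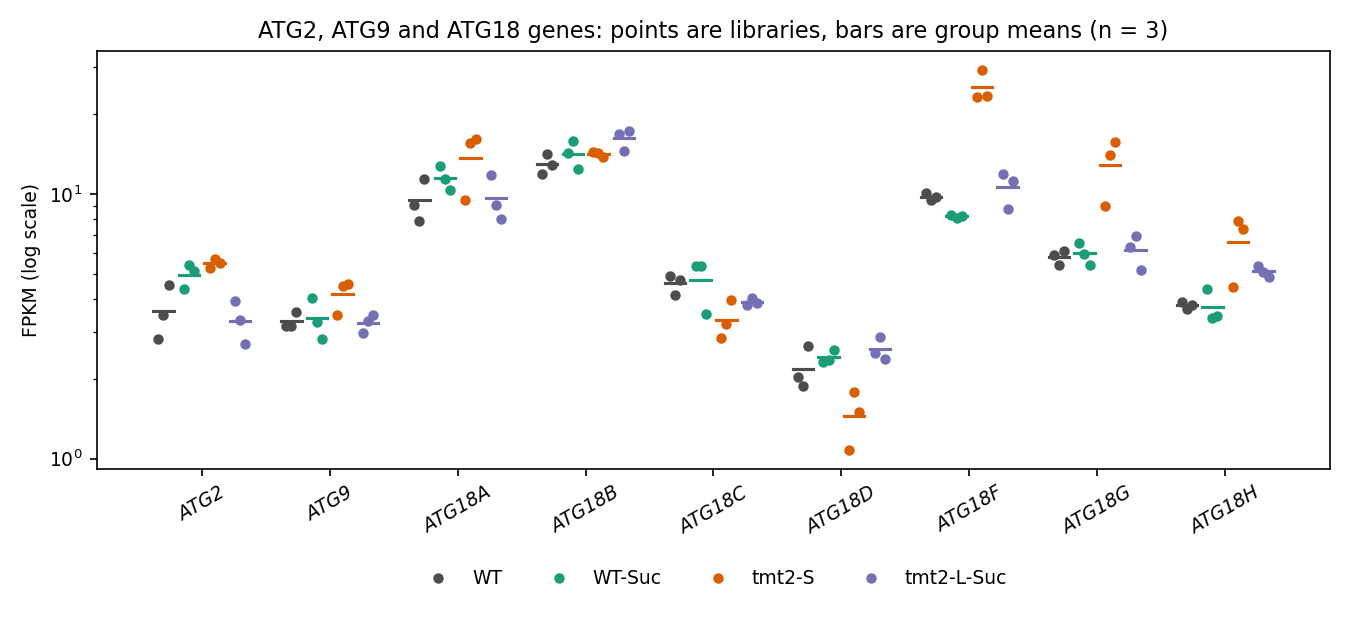
FPKM (log axis) of *ATG2*, *ATG9* and the 7 tested *ATG18* genes (x axis) in the 12 libraries, with 3 points per group and a bar at the group mean. *ATG18F* and *ATG18G* are higher in all *tmt2-S* libraries than in the other 9, and *ATG18D* is lower in all of them.

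Of the 6 genes of the conjugation systems, *ATG5* alone was called in *tmt2-S*/WT. It had 7.52, 7.82 and 9.77 FPKM in the WT and 11.4, 12.1 and 14.8 FPKM in *tmt2-S* (log2FC 0.58, edgeR adjusted p = 0.0122), a call lost without *tmt2-S* replicate 3. In *tmt2-L-Suc* it had 7.28, 6.18 and 5.43 FPKM, below every WT library (log2FC 1.1 for *tmt2-S*/*tmt2-L-Suc*, edgeR adjusted p = 0.000169). *ATG5* overlaps AT5G17280 on the opposite strand over 597 bases, the sources used here do not say whether counting used strand, and AT5G17280 was also higher in *tmt2-S*/WT (log2FC 1.00, edgeR adjusted p = 0.000486). The overlap is that of the whole gene spans. If strand was not used, reads of the 2 genes could not be told apart where their exons overlap. Other called genes also overlap a gene on the opposite strand: *ATG18H* over 366 bases, *ATG18G* over 341, *ATG9* over 184, *ATG8I* over 183 and *ATG8A* over 27. Except for that of *ATG8A*, these partner genes are not in the deposited table, so their levels could not be checked. *ATG12A* was called in *tmt2-S*/*tmt2-L-Suc* (log2FC 0.89, edgeR adjusted p = 0.0156), with 25.0, 20.4 and 27.8 FPKM in *tmt2-S*, 18.4, 9.86 and 12.5 FPKM in *tmt2-L-Suc* and 17.4, 19.3 and 15.9 FPKM in the WT. Leaving out *tmt2-S* replicate 3 or *tmt2-L-Suc* replicate 2 or 3 ended that call. *ATG7*, the activating enzyme, and *ATG3*, the conjugating enzyme, had log2FC of 0.32 and 0.05 in *tmt2-S*/WT and were not called, and neither were *ATG10* and *ATG12B*. *ATG13* and *ATG6*, the only members of their complexes among the 27 genes, had log2FC of -0.07 and 0.21 and were not called in either comparison.

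In *tmt2-S*/*tmt2-L-Suc*, 13 of the 26 autophagy genes were higher and 1 was lower in *tmt2-S*, and 25.7% of all genes were higher and 25.8% lower. Again 3 were DEGs, *ATG8B*, *ATG18F* and *ATG8H*, against 10.6% of all genes as higher and 12.4% as lower DEGs. The *tmt2-S* libraries were all above the *tmt2-L-Suc* libraries for 9 genes and all below for 2, as for 27.7% and 29.6% of all genes. The median log2FC was 0.44 for the autophagy genes and -0.0146 for all genes. This comparison and *tmt2-S*/WT share the *tmt2-S* libraries and are not independent. Over the 32 genes of the symbol rule, 10 were called in *tmt2-S*/WT and 15 in *tmt2-S*/*tmt2-L-Suc*, where 8016 and 9533 of all 18506 genes were called. The rise was unequal between the *tmt2-S* libraries. In the first, 11 of the 26 genes were above the highest WT library and 9 below the lowest, close to the 37.7% and 40.5% of all genes. In the second, 17 were above and 4 below, where 38.3% of all genes were above and 40.9% below. In the third, 22 were above and 3 below, where 39.4% of all genes were above and 40.3% below. The median difference of the 26 genes from the WT mean was 0.06, 0.39 and 0.67 on the log2 CPM scale in the 3 libraries. Without *tmt2-S* replicate 1, the calls among the 32 genes rose from 10 to 16 in *tmt2-S*/WT, and those over all genes from 8016 to 8464. Without *tmt2-S* replicate 3 or *tmt2-L-Suc* replicate 3, the calls among the 32 genes in *tmt2-S*/*tmt2-L-Suc* dropped from 15 to 8. Over all genes the calls dropped from 9533 to 8810 and 8214, in that order.

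*SEN1*, a gene of dark and sugar starvation and of senescence, differed between the *tmt2-S* libraries in the same order, with 957, 2146 and 4527 FPKM. It had 297, 291 and 732 FPKM in the WT, 443, 1017 and 603 FPKM in WT-Suc and 213, 122 and 77.4 FPKM in *tmt2-L-Suc*. The other senescence marker measured, *SAG13*, had at most 1.70 FPKM, and 1 of the 3 listed markers was not analysed here. At this low level *SAG13* was called higher in *tmt2-S*/WT (log2FC 5.66, edgeR adjusted p = 0.000462), and so was *SEN1* (log2FC 2.49, edgeR adjusted p = 0.00357). The sum of 5 shoot markers of photosynthesis was 48810 to 73522 FPKM in *tmt2-S* and 72664 to 88298 FPKM in the WT. Of these 5 genes *RBCS3B* was lower in *tmt2-S*/WT (log2FC -0.99, edgeR adjusted p = 0.000639), *GAPA* was higher, with 1897 ± 175 FPKM against 1190 ± 192 FPKM (log2FC 0.63, edgeR adjusted p = 0.0274), and *RBCS1A*, *LHCB1.1* and *LHCB2.1* were not called. The sum of 7 root markers was at most 9.05 FPKM in any library, and that of 5 seed storage markers was at most 0.42 FPKM in *tmt2-S* and 249 FPKM in WT-Suc replicate 2. The part of these differences in the autophagy values was not tested.

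In the WT, no autophagy gene passed the test for a difference with sucrose. Over all genes this test gave 272 calls of 18506 with all libraries. It gave 1445 of 18812 without WT-Suc replicate 1 and 0 of 18817 without WT-Suc replicate 2. In WT-Suc/WT none of the 26 genes was called with edgeR or with DESeq2, 3 had an unadjusted p ≤ 0.05 (*ATG10*, *ATG18F* and *ATG2*), and 1.47% of all genes were called, 0.222% as higher and 1.25% as lower. That unadjusted threshold was passed by 3612 of all 18506 genes. The log2FC ranged from -0.32 for *ATG18F* to 0.63 for *ATG10*, whose level was 3.94 ± 0.883 FPKM in the WT and 6.72 ± 0.342 FPKM in WT-Suc (edgeR adjusted p = 0.141). The median log2FC was 0.06. The same difference in *tmt2*, written as *tmt2-L-Suc*/*tmt2-S*, ranged from -2.18 for *ATG8B* to 0.78 for *ATG18D*, with a median of -0.44.

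The interaction term, taken as the log2FC of *tmt2-L-Suc*/*tmt2-S* minus that of WT-Suc/WT, was called for 8 of the 26 genes, all negative, where 16.6% of all genes were called as negative and 18.1% as positive. The median was -0.48 for the autophagy genes and 0.0081 for all genes. The value was -2.36 for *ATG8B* (SE 0.31, edgeR adjusted p = 0.00024), -1.19 for *ATG5*, -1.18 for *ATG2*, -1.11 for *ATG18G* and -1.01 for *ATG18F*. These 5 calls held under every alternative tried. *ATG12A*, *ATG8F* and *ATG8I* were called as well, with edgeR adjusted p of 0.0337, 0.0346 and 0.0471, and all 3 were lost without WT replicate 3, WT-Suc replicate 2 or 3, *tmt2-S* replicate 3 or *tmt2-L-Suc* replicate 2 or 3. Since the *tmt2-S* seedlings were 7 days old, this term holds age and seedling type as well as sucrose.

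**Figure D5:**
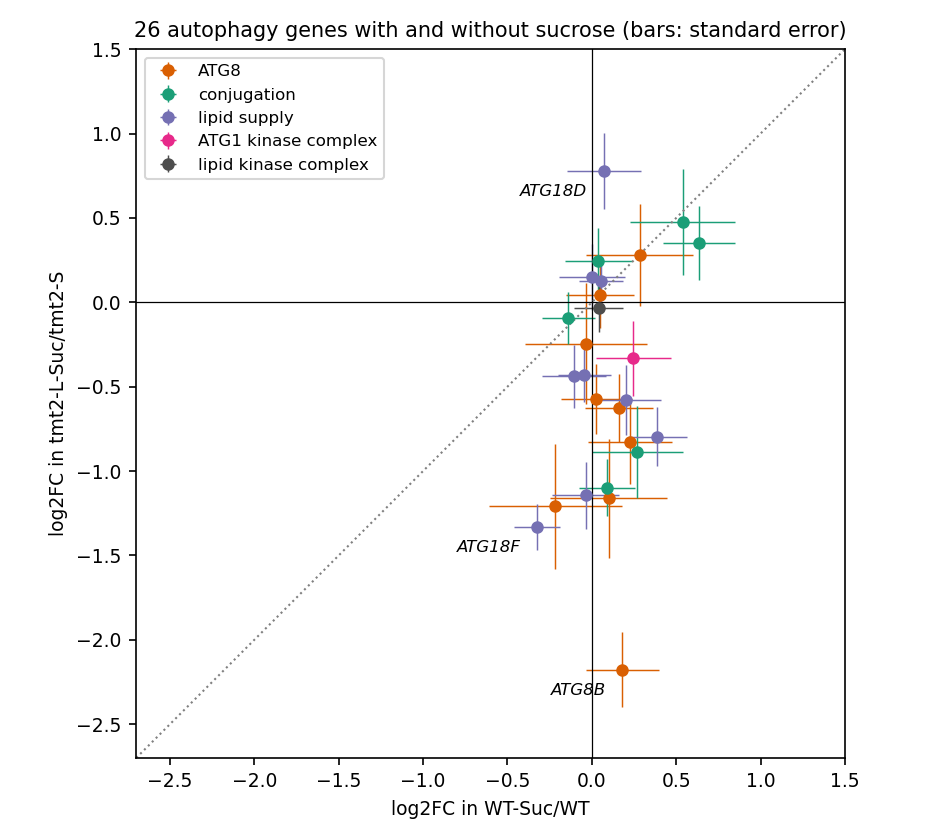
Log2FC of the 26 tested autophagy genes in WT-Suc/WT (x axis) and in *tmt2-L-Suc*/*tmt2-S* (y axis), with standard errors as bars and colours by role; the dotted line marks equal values. The genes lie between -0.32 and 0.63 on the x axis and between -2.18 and 0.78 on the y axis, with *ATG8B* lowest.

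With sucrose in the media, 2 autophagy genes differed between *tmt2* and the WT. In *tmt2-L-Suc*/WT-Suc, *ATG5* and *ATG2* were called, both lower in *tmt2-L-Suc*, against 10.4% of all genes called lower and 10% higher. *ATG5* had 8.48, 10.5 and 9.07 FPKM in WT-Suc, all above the *tmt2-L-Suc* libraries given above (log2FC -0.60, SE 0.17, edgeR adjusted p = 0.0241). *ATG2* had 4.36, 5.38 and 5.11 FPKM in WT-Suc, also above all *tmt2-L-Suc* libraries (log2FC -0.61, SE 0.18, edgeR adjusted p = 0.0284). Both calls were lost without WT-Suc replicate 2 or 3 or *tmt2-L-Suc* replicate 3, and without WT-Suc replicate 1 the calls rose from 2 to 5. Over all genes, the calls without WT-Suc replicate 1 rose from 3790 of 18506 to 4763 of 18812. In *tmt2-L-Suc*/WT none of the 26 genes was called with edgeR, 3 had an unadjusted p ≤ 0.05, DESeq2 called 1, *ATG5* (log2FC -0.51 and adjusted p = 0.0634 with edgeR), and 11.7% of all genes were called, 4.77% as higher and 6.97% as lower. In this comparison 5128 of all 18506 genes passed that unadjusted threshold. The age was the same in these groups.

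The promoters of 3 *ATG8* genes are shown beside the motifs of factors that have been linked to autophagy genes in Arabidopsis. *ATG8B* and *ATG8H* were called higher in *tmt2-S* against both groups, and *ATG8E*, 1 of the 2 most abundant isoforms, was called only against *tmt2-L-Suc*. The motifs are TGACG, bound by TGA factors such as TGA9, TTGAC, the core of the W-box bound by WRKY33 and its relatives, and the G-box CACGTG, bound by HY5. Each line gives the 250 bases before the annotated transcript start in TAIR10.1, with matches on either strand in capitals.
*ATG8B* (chr4:2330591-2330840, minus strand): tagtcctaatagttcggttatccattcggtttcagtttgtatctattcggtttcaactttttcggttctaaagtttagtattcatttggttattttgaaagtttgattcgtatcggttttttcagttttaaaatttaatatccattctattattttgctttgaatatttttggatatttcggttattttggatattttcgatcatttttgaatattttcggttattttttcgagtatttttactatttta
*ATG8E* (chr2:18624014-18624263, plus strand): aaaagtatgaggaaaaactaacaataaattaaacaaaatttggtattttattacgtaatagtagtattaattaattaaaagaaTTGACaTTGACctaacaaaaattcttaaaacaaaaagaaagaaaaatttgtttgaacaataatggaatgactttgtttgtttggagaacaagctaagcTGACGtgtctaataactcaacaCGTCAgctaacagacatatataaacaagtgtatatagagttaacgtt
*ATG8H* (chr3:1956398-1956647, minus strand): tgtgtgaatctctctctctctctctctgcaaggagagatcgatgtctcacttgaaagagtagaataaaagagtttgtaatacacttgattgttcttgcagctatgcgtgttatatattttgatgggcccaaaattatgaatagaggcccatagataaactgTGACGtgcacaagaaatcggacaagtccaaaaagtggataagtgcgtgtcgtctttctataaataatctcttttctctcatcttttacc
*ATG8E* holds TGACG at 2 places and TTGAC at 2, *ATG8H* holds TGACG once, and the *ATG8B* window holds none of the 3 motifs. TGACG and TTGAC share the letters TGAC and can overlap as TTGACG, which none of these windows has. Over the 27 autophagy genes, TGACG was found in 8 windows (29.6%), against 18.6% of the windows of 27443 protein-coding genes. TTGAC was found in 6 (22.2%) against 44.9%, and CACGTG in 2 (7.41%) against 6.49%. Letters alone do not show binding.

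Of 23 further genes that act with the ATG proteins or have been linked to their transcription, 22 were tested, and 8 were higher and 1 was lower in *tmt2-S*/WT, where 20.7% of all genes were higher and 22.6% lower. *NBR1*, the cargo receptor for ubiquitinated aggregates, had 15.2, 16.5 and 18.5 FPKM in the WT and 30.6, 47.9 and 38.2 FPKM in *tmt2-S* (log2FC 1.18, edgeR adjusted p = 8.98e-05). It had 17.99, 17.7 and 16.7 FPKM in *tmt2-L-Suc*, and all *tmt2-S* libraries were above the other 9. *DSK2B*, another ubiquitin-binding receptor, rose by 0.67 on the log2 scale, *VPS15*, a subunit of the lipid kinase complex, by 0.57, *FREE1*, an endosomal sorting protein, by 0.42, and AT3G43230 by 0.67. *KIN11*, a catalytic subunit of the SnRK1 energy kinase, had 10.4, 13.7 and 14.5 FPKM in the WT and 19.0, 23.6 and 21.5 FPKM in *tmt2-S* (log2FC 0.74, edgeR adjusted p = 0.00118), while *KIN10* was not called in either comparison. *RAPTOR1A*, a partner of the TOR kinase, was the gene called lower (log2FC -0.42, edgeR adjusted p = 0.0352).

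Among the transcription factors, *WRKY33* had 73.0, 76.5 and 53.4 FPKM in the WT and 220, 276 and 177 FPKM in *tmt2-S* (log2FC 1.68, edgeR adjusted p = 0.000804). *HY5* had 21.6, 14.2 and 15.8 FPKM in the WT, 43.3, 49.6 and 42.5 FPKM in *tmt2-S* and 7.22, 10.4 and 13.1 FPKM in *tmt2-L-Suc* (log2FC 1.34 in *tmt2-S*/WT, edgeR adjusted p = 0.000327). Neither overlapped with the WT. *TGA9* was low throughout, with at most 2.14 FPKM, and was called in *tmt2-S*/*tmt2-L-Suc* (log2FC 1.84, edgeR adjusted p = 0.00775) but not in *tmt2-S*/WT. In *tmt2-S*/*tmt2-L-Suc*, 9 of the 22 genes were higher, among them *ATI1*, a receptor on the endoplasmic reticulum and plastids (log2FC 0.74), and 1 lower, where 25.7% of all genes were higher and 25.8% lower. In WT-Suc/WT the only call was *WRKY33* (log2FC -1.37, edgeR adjusted p = 0.0471), which was lost without WT replicate 1 or 2 and without WT-Suc replicate 1 or 2. In *tmt2-L-Suc*/WT, *TGA9* (log2FC -2.20) and *HY5* (log2FC -0.84) were lower. In *tmt2-L-Suc*/WT-Suc, *WRKY33* (log2FC 1.97) and *DSK2A* (log2FC 0.40) were higher and *ATI1* (log2FC -0.77) and *ATI2* (log2FC -0.49) lower. The calls in WT-Suc/WT, *tmt2-L-Suc*/WT and *tmt2-L-Suc*/WT-Suc thus numbered 1, 2 and 4 among the 22 genes. Over all 18506 genes the same comparisons gave 272, 2172 and 3790 calls, in that order. The interaction term was called as negative for 7 of the 22 genes, among them *NBR1* (-1.50) and *HY5* (-1.53), and as positive for *RAPTOR1A* (0.74), where 16.6% of all genes were negative and 18.1% positive.

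The table lists 7 further loci by locus alone, of which 5 have an autophagy name or product in the annotation, among them AT4G30790 (*ATG11*) and AT5G66930 (*ATG101*), and 2, AT2G44140 and AT3G59950, are annotated as C54 peptidases, the family of ATG4. None was called in *tmt2-S*/WT (edgeR), where 1 had an unadjusted p ≤ 0.05, as had 9430 of all 18506 genes. AT4G30790 was higher in *tmt2-S*/*tmt2-L-Suc*, with 9.14 ± 0.940 FPKM in *tmt2-S* and 5.94 ± 0.817 FPKM in *tmt2-L-Suc* (log2FC 0.69, edgeR adjusted p = 0.00557). Of the 5 genes that share only the symbol, *APG10* was lower in *tmt2-S*, with 10.2, 9.97 and 8.77 FPKM in the WT and 7.31, 3.87 and 3.06 FPKM in *tmt2-S* (log2FC -1.07, edgeR adjusted p = 0.00496). It was also lower in *tmt2-S*/*tmt2-L-Suc* (log2FC -1.13, edgeR adjusted p = 0.00261). *APG1*, *APG2*, *APG3* and *EBP1* were not called in *tmt2-S*/WT, with log2FC of -0.03, 0.21, -0.03 and 0.49.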

How the data were processed

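Poly(A) RNA of 12 shoot samples was sequenced on an MGISeq instrument. The authors filtered the reads, aligned them to TAIR10.1 with Bowtie2 and quantified genes with RSEM (versions not given in the sources used here). The deposited expected counts are RSEM's read numbers per gene without normalization, and the authors scaled the FPKM values by transcript length and by the mapped fragments of the library. The deposited TPM values, scaled by the authors to a fixed sum per library (12 columns), and 12 columns of group averages were not used. Expected counts were rounded, and all 22953 genes were matched to the annotation by identifier. The total per library was 20187961 to 21370053.

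Genes were filtered with filterByExpr (18506 kept), scaled by TMM and fitted with edgeR 4.0.16 (quasi-likelihood, 1 mean per group, 12 libraries, two-sided) in R 4.3.3, with limma 3.58.1. Benjamini-Hochberg adjustment ran over all genes, and a gene was called at adjusted p ≤ 0.05. The standard error is the log2FC divided by the square root of F. FPKM shares were compared with exact permutation tests (scipy 1.17.1). Full statistics are given for members with |log2FC| ≥ 1.2 and adjusted p ≤ 0.05 in *tmt2-S*/WT or *tmt2-S*/*tmt2-L-Suc*, and for those called in WT-Suc/WT or *tmt2-L-Suc*/WT-Suc. The *ATG8* isoforms were described singly, and further genes were named if called. Alternatives were DESeq2 1.42.0, median-of-ratios scaling, other count filters, the compared groups alone and a replicate block. Others were adjusted p ≤ 0.01, the 27 autophagy genes only, expected counts in place of FPKM for shares, and leaving out each library. The fits were tested on simulated data. Replicate libraries differed by more than sampling noise. The labels do not say whether replicates came from separate cultures, so p-values measure the spread between these samples. The members, lists and tests were chosen with earlier results of these data known. Sequences are from the RefSeq annotation of TAIR10.1.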

Additional observations from a re-analysis of the deposited data

Results flagged for a closer look

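For 8 of the 26 autophagy genes the edgeR interaction test called the difference with sucrose in *tmt2* unlike that in the WT. All 8 values were negative, where 16.6% of all genes were called as negative and 18.1% as positive. The term holds age and seedling type as well as sucrose, and the calls of *ATG12A*, *ATG8F* and *ATG8I* were lost under several alternatives. The difference in *tmt2* minus that in the WT was -2.36 for *ATG8B*, -1.19 for *ATG5*, -1.18 for *ATG2*, -1.16 for *ATG12A*, -1.11 for *ATG18G*, -1.06 for *ATG8F*, -1.01 for *ATG18F* and -0.79 for *ATG8I* on the log2 scale.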

How the results depend on the processing

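No call of a single gene reversed its direction. Without 1 library at a time, some medians and share differences changed sign. The median log2FC over the 32 genes ran from -0.0033 to 0.1454 in WT-Suc/WT and from -0.0713 to 0.0141 in *tmt2-L-Suc*/WT-Suc. The difference in the *ATG8H* share in *tmt2-S*/*tmt2-L-Suc* ran from -0.059 to 1.424 points. Of 35 calls of single genes, 401 of 495 values under the alternatives stayed past the threshold and 94 did not. The counts below are over the 32 genes of the symbol rule. At adjusted p ≤ 0.01 there were 6 calls in *tmt2-S*/WT (10 at 0.05), 6 in *tmt2-S*/*tmt2-L-Suc* (15), 0 in *tmt2-L-Suc*/WT-Suc (2) and 5 in the interaction (8). DESeq2 gave 1 call in *tmt2-L-Suc*/WT (0) and 4 in *tmt2-L-Suc*/WT-Suc, and the compared groups alone gave 1 and 4. Over all genes these 2 comparisons had 2172 and 3790 calls of 18506 with edgeR on all libraries. DESeq2 gave 3037 and 4590 of 22930, and the compared groups alone 2753 of 17987 and 4001 of 17819. Without 1 library at a time the calls among the 32 genes ranged from 8 to 16 in *tmt2-S*/WT and 8 to 17 in *tmt2-S*/*tmt2-L-Suc*. They ranged from 0 to 5 in *tmt2-L-Suc*/WT-Suc and 5 to 15 in the interaction, where leaving out *tmt2-S* replicate 1 gave the highest count. Over all genes that refit called 7176 of 18776 in the interaction (6410 of 18506 with all libraries). The median log2FC ranged from 0.18 to 0.42 in *tmt2-S*/WT (0.32), 0.22 to 0.53 in *tmt2-S*/*tmt2-L-Suc* (0.33) and -0.51 to -0.25 in the interaction (-0.28). The cause was not tested. With expected counts in place of FPKM, the share of *ATG8B* was 3.13 points higher in *tmt2-S* than in the WT (2.30 with FPKM) and 3.53 points higher than in *tmt2-L-Suc* (2.57), since counts do not correct for length.

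For the 22 further genes, whose alternatives were chosen after seeing the data, WT-Suc/WT had 0 calls with the replicate block, with the compared groups alone and at adjusted p ≤ 0.01 (1 otherwise), and 0 to 1 without 1 library. In *tmt2-L-Suc*/WT there was 1 call with at least 10 counts in every library, with the block and with the compared groups alone, 0 at adjusted p ≤ 0.01 (2 otherwise), and 0 to 2 without 1 library. In *tmt2-L-Suc*/WT-Suc there were 2 with the block, 1 at adjusted p ≤ 0.01 (4 otherwise), and 1 to 6 without 1 library. Over all genes the block lowered the calls from 272 to 153 in WT-Suc/WT and from 2172 to 1695 in *tmt2-L-Suc*/WT. In *tmt2-L-Suc*/WT-Suc it lowered them from 3790 to 3165.

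Whether replicate numbers pair the libraries was not settled. The correlation of the deviations of same-numbered libraries lay between -0.325 and 0.331, and differently numbered libraries were not correlated for reference. With the replicate number as a block, 29 of the 35 calls stayed and 6 did not: *ATG9* (log2FC 0.43), *ATG18A* (0.57) and *ATG8A* (0.56) in *tmt2-S*/*tmt2-L-Suc*, and *ATG12A* (-1.14), *ATG8I* (-0.77) and *ATG8F* (-1.02) in the interaction.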
